A study of Mus musculus with 8 samples.

Results

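Neurog1, Neurog2, Neurog3, Neurod1, Neurod2, Neurod4, Olig1, Olig2 and Olig3 are the genes of the proneural basic helix-loop-helix (bHLH) family described here. They were taken by name, as 9 of 21631 protein-coding genes on the 19 autosomes and the X chromosome, with their RefSeq positions in GRCm38.p6, which shares its coordinates with mm10. Each gene was read with 20 kb either side. The study was done on mesenchymal stem and progenitor cells grown from the bone marrow of C57BL/6 mice, at passages 5 to 10. Chromatin immunoprecipitation sequencing, which reads the DNA bound to a protein or a modified histone, was done for ASXL1 in wild-type cells. H3K4me2, H3K4me3 and H3K27me3 were read in wild-type and in Asxl1-/- cells, and each of these 7 combinations is 1 library. The labels do not say how the Asxl1-/- allele was made, nor how many animals gave the cells.

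Proneural bHLH proteins are transcription factors that push a dividing progenitor to become a neuron. They bind DNA at E-box letters as dimers with E proteins, and Notch signalling opposes them through the Hes repressors. The Neurog genes act early in the choice of fate, the Neurod genes act later in differentiation, and the Olig genes direct motor neurons and oligodendrocytes. Polycomb repressive complex 2 lays H3K27me3 on developmental genes that are held silent. H3K4me3 is found at promoters in use or poised for it, and H3K4me2 at enhancers as well. ASXL1 works with BAP1, the enzyme that removes ubiquitin from histone H2A.

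The promoter sequences of 5 of the genes are shown because they span the range of CpG content in the family and of the chromatin found over it. Neurog1 and Olig2 had an H3K4me2 island over the transcription start in a single genotype, Neurod1 had H3K4 marks inside the gene alone, Olig3 lay under H3K27me3 with few CpG, and Neurod4 had no island at all. Each is the 250 bases before the start, from RefSeq on GRCm38.p6, written 5′ to 3′ on the strand of the gene, with every CpG in capitals. They lie at chr13:56252181-56252430 on the minus strand (Neurog1), chr2:79456637-79456886 on the minus strand (Neurod1), chr16:91225300-91225549 on the plus strand (Olig2), chr10:19356289-19356538 on the plus strand (Olig3) and chr10:130280255-130280504 on the minus strand (Neurod4). These stretches hold 29 CpG in Neurog1, 22 in Neurod1, 22 in Olig2, 4 in Olig3 and 2 in Neurod4.
Neurog1: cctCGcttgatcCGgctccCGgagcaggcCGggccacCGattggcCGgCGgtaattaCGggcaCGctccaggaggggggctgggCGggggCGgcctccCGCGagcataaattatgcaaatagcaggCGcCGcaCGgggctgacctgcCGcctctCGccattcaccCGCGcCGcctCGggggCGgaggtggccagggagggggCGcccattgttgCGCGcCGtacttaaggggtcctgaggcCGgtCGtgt
Neurod1: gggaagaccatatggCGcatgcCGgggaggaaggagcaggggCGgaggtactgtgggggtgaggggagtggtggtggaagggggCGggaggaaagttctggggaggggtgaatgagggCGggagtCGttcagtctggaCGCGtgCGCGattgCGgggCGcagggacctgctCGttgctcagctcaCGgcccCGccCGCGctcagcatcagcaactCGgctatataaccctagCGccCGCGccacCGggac
Olig2: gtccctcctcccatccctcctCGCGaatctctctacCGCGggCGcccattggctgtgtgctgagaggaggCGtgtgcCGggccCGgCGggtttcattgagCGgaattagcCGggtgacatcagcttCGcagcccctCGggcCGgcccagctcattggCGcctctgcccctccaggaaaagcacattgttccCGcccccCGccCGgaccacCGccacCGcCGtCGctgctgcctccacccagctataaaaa
Olig3: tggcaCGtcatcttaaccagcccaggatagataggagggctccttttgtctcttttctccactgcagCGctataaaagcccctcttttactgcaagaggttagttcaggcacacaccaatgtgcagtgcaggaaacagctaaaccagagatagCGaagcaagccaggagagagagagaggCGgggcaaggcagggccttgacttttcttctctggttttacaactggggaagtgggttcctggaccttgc
Neurod4: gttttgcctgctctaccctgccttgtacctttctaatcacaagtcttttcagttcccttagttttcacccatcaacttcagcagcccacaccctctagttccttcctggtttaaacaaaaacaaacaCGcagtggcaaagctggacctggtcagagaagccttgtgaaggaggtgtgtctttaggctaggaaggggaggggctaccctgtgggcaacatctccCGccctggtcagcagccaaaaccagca

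The files give islands, which are stretches called as enriched by SICER on a 200 bp grid, and no read count or score for any of them. An island is therefore present or absent here, and the depth of the libraries is unknown. With 1 library per target and genotype no test between genotypes was made, and each difference below describes these libraries. A gene counted as marked when an island lay over it or within 1 kb of it. The genotypes differed over whole chromosomes, which touches several of these genes. The H3K27me3 length of Asxl1-/- over that of wild type was 0.222 on chromosome 3 (Neurog2) and 0.491 on chromosome 13 (Neurog1). It was 0.731 on chromosome 16 (Olig1, Olig2), 0.815 on chromosome 2 (Neurod1) and 1.5 on chromosome 11 (Neurod2). Chromosome 10 (Neurog3, Neurod4, Olig3) stood at 2.09. H3K4me2 gave the same order for chromosomes 3, 13, 16, 2, 11 and 10, from 0.532 to 1.35, as did H3K4me3, from 0.70 to 1.45. The labelled cell type was read from marker lists: 14 of 15 mesenchymal stromal genes had H3K4me3 in both genotypes, Lepr being the exception, and Ptprc, the pan-leukocyte gene, had it in wild type alone. Spi1 was the other of 7 blood markers with H3K4me3. Of 4 endothelial markers Kdr had H3K4me3, and of 7 neural and glial markers Pax6 did, each in both genotypes. H3K27me3 was in wild type at 3 of the 15 stromal, 6 of the 7 blood, 3 of the 4 endothelial and 6 of the 7 neural and glial markers. H3K4me2 was at 3 neural and glial markers in wild type and at 6 in Asxl1-/-, with Gfap, Rbfox3 and Sox1 in Asxl1-/- alone. Over all genes 2.87% had H3K4me2 in Asxl1-/- alone, which is 9.11% of those without it in wild type. In wild type and Asxl1-/-, H3K4me2 was at 4 and 3 of the blood, 3 and 2 of the endothelial and 14 and 15 of the stromal markers. The part of other cells in the islands below was not tested.

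H3K27me3 covered 8 of the 9 genes, and it did so in both genotypes. Neurog1, Neurog2, Neurog3, Neurod1, Neurod2, Olig1, Olig2 and Olig3 had it, and Neurod4, a factor of retinal and other neurons, had none. Over all protein-coding genes 28.9% had H3K27me3 in wild type, 27.3% in Asxl1-/-, 22.0% in both and 65.8% in neither. No gene of the family had H3K27me3 in wild type alone, as 6.91% of all genes did, or in Asxl1-/- alone, as 5.21% did. Of the 6262 genes marked in wild type, 23.9% were without the mark in Asxl1-/-, and of those unmarked in wild type, like Neurod4, 7.33% had it there. On the chromosomes of the family, the share of wild-type marked genes without the mark in Asxl1-/- was 58.3% on chromosome 3, 41.3% on 16, 37.6% on 13, 22.5% on 2, 12.9% on 11 and 11.8% on 10. In wild type the whole gene body was under H3K27me3 at all 8, and in Asxl1-/- at 7, with 70.9% covered at Neurod1. Over all genes 6.40% were wholly covered in wild type and 5.87% in Asxl1-/-. These 8 genes are short, each under 5 kb as 22.4% of all genes are, and of the 4850 genes of at most 5 kb 9.92% were wholly covered in both genotypes, against 7 of these 8.

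**Figure D1:**
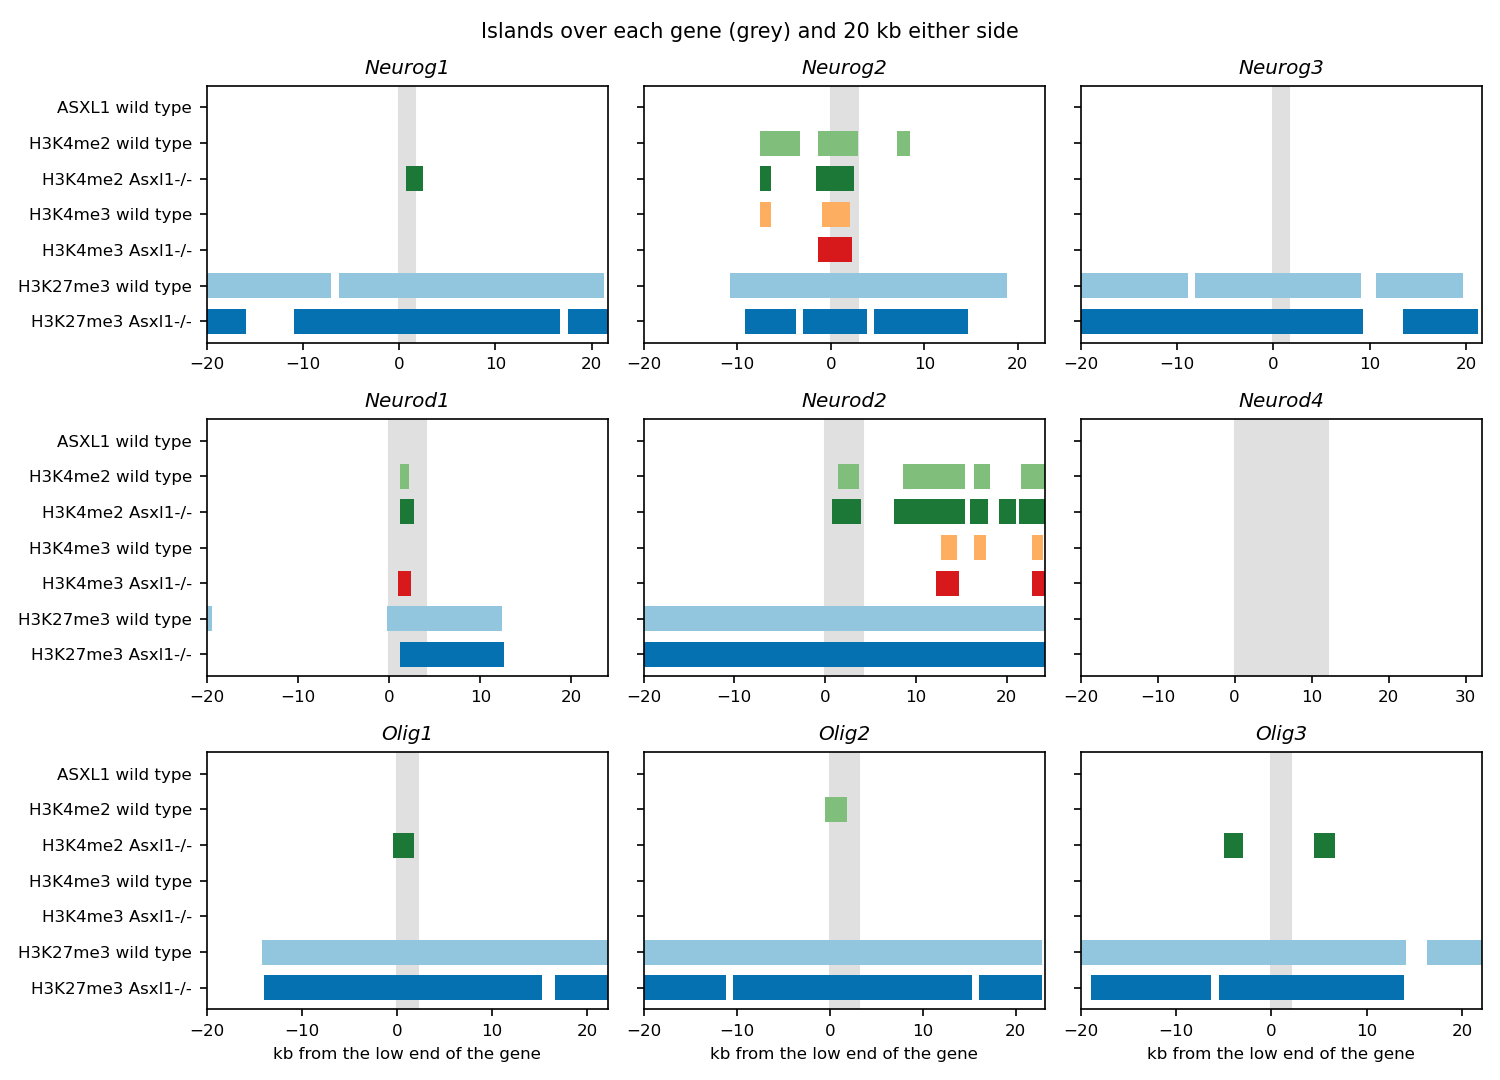
Islands of the 7 libraries (rows) over each of the 9 genes, with the gene in grey and distance in kb from its end of lower coordinate on the horizontal axis; bars are islands, cut at 20 kb from the gene. Both H3K27me3 rows run over 8 genes, the ASXL1 row is empty in every panel and the Neurod4 panel holds no island.

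ASXL1 was absent from all 9 genes and from the 20 kb either side of each. Over all protein-coding genes 54.3% had an ASXL1 island at the gene, and 35.5% had none within 20 kb. Among the 4768 genes with H3K27me3 in both genotypes, 29.8% had ASXL1 at the gene and 48.3% had none within 20 kb. The nearest ASXL1 island lay 23.4 kb from Neurod2, 52.4 kb from Neurod1, 76.9 kb from Neurog2 and 80.3 kb from Olig1. It lay 113.3 kb from Neurog1, 123.5 kb from Olig2, 162.5 kb from Olig3, 163.8 kb from Neurog3 and 472.0 kb from Neurod4.

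H3K4me3 was rare over these genes. Neurog2 alone had it in wild type, and Neurog2 and Neurod1 had it in Asxl1-/-, against 63.1% and 62.3% of all genes. Neurog2 thus had it in both genotypes (60.4% of all genes), Neurod1 in Asxl1-/- alone (1.92%), the other 7 in neither (35.0%) and none in wild type alone (2.71%, or 4.30% of the genes with it in wild type). Among genes with H3K27me3 in both genotypes, 47.1% had H3K4me3 in both and 40.9% in neither, and of the 8 genes here 1 had it in both and 6 in neither. H3K4me2 was at Neurog2, Neurod1, Neurod2 and Olig2 in wild type, and at Neurog1, Neurog2, Neurod1, Neurod2 and Olig1 in Asxl1-/-, against 68.5% and 69.4% of all genes. That made 3 genes with H3K4me2 in both genotypes (66.5% of all genes), Olig2 with it in wild type alone (2.04%), Neurog1 and Olig1 in Asxl1-/- alone (2.87%), and Neurog3, Neurod4 and Olig3 in neither (28.6%). Among the 4768 genes with H3K27me3 in both genotypes these shares were 65.4%, 3.27%, 7.49% and 23.9%.

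Read as combinations, wild type had H3K27me3 with neither H3K4 mark at Neurog1, Neurog3, Olig1 and Olig3, a state of 8.60% of all genes. It had H3K27me3 with H3K4me2 and no H3K4me3 at Neurod1, Neurod2 and Olig2 (3.69%), H3K27me3 with H3K4me3 at Neurog2 (16.7%) and no mark at Neurod4 (22.7%). In Asxl1-/- the genes with H3K27me3 and neither H3K4 mark were Neurog3, Olig2 and Olig3 (7.99%). Those with H3K27me3 and H3K4me2 were Neurod2, Neurog1 and Olig1 (5.20%), those with H3K27me3 and H3K4me3 were Neurog2 and Neurod1 (14.1%), and Neurod4 again had no mark (22.4%). Neurog1, Neurod1, Olig1 and Olig2 thus changed state between these libraries, and the other 5 did not. The share of all genes that changed state was not counted, so this number has no background beside it.

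The H3K4 islands in the gene windows were short and lay inside the H3K27me3 domains. They had widths from 1.0 to 7.8 kb, with a median of 2.2 kb, and 29 of the 30 were wholly under H3K27me3 of the same genotype. The exception was the H3K4me3 island of Neurod1, with 85.7% of it under H3K27me3. Over the genome 10.4% of H3K4me2 islands in wild type and 10.3% in Asxl1-/- lay wholly under H3K27me3, and 14.1% and 11.4% of H3K4me3 islands did. These shares are not a matched background, since the median window here was itself 89.5% under H3K27me3 in wild type and 82.4% in Asxl1-/-. The window of Neurod2, wholly under H3K27me3 in both genotypes, held 4 H3K4me2 and 3 H3K4me3 islands in wild type and 5 and 2 in Asxl1-/-. Their place under H3K27me3 was therefore largely fixed by the cover of the window. In these bulk libraries, marks on the same DNA molecule and marks in different cells of the culture cannot be told apart.

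**Figure D2:**
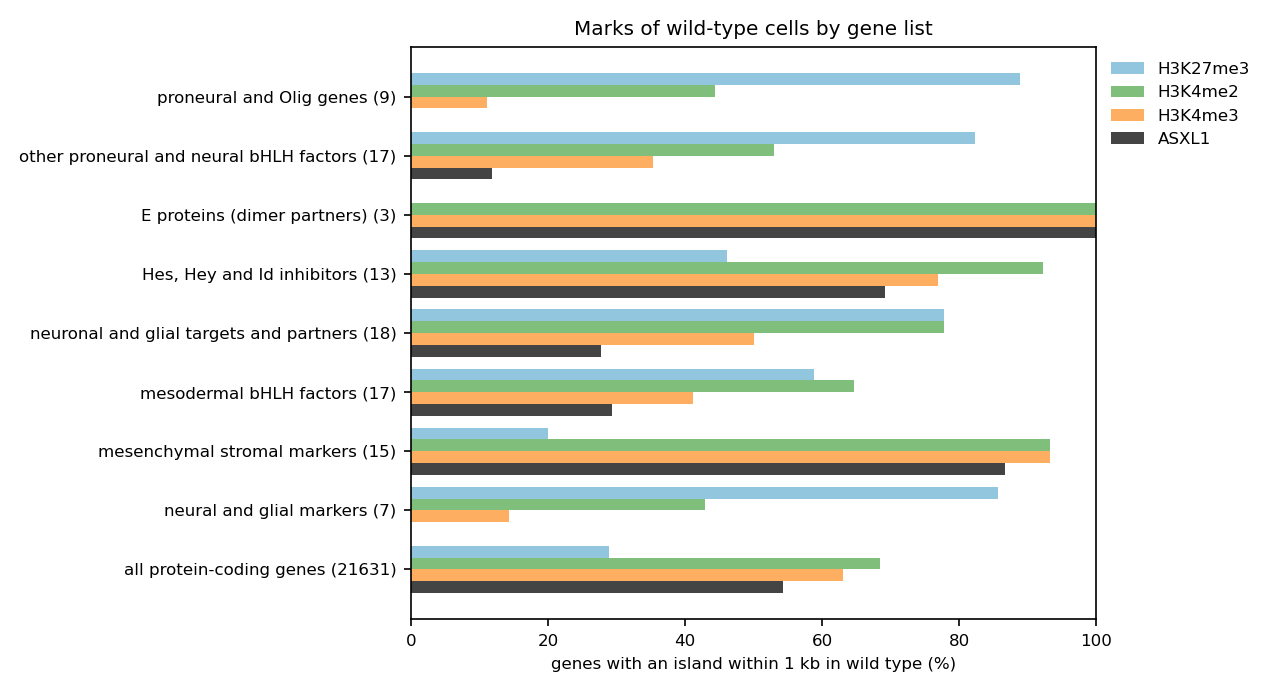
Share of genes (horizontal axis, percent) with a wild-type island at the gene or within 1 kb, by gene list with its number of genes; bar colours are the 4 targets. The 9 proneural and Olig genes have the H3K27me3 bar far above that of all 21631 genes, at 8 of 9 against 28.9%, and no ASXL1 bar.

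Neurog1 gives rise to sensory neurons of the cranial ganglia. It lies on chromosome 13 from 56250478 to 56252180, on the minus strand. In wild type H3K27me3 covered 40.5 kb of its window, and in Asxl1-/- 35.9 kb, with 85.7% of the wild-type length covered in both. The island over the gene was 27.6 kb wide in each genotype, from 56244201 in wild type and from 56239601 in Asxl1-/-. No H3K4me3 island lay in the window in either genotype. Asxl1-/- alone had an H3K4me2 island, of 1.8 kb, from 56251201 to 56253000, and it spanned the transcription start from 820 bp before it to 979 bp after it. It covered the whole of the CpG-rich stretch printed above. The nearest wild-type H3K4me2 island was 28.1 kb away. Of genes without H3K4me2 in wild type, 9.11% had it in Asxl1-/-, and 6.53% did on chromosome 13.

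Neurog2, which drives excitatory neurons of the cortex, was the 1 gene with all 3 histone marks at the transcription start in both genotypes. Its place is chromosome 3, from 127632733 to 127635636, on the plus strand. The H3K4me3 island over the gene was 3.0 kb wide in wild type, from 127631801 to 127634800, and 3.6 kb in Asxl1-/-, from 127631401 to 127635000. The H3K4me2 island over it measured 4.2 kb in wild type and 4.0 in Asxl1-/-. The promoter islands were thus nearly equal in the genotypes, and the surroundings were not. Farther upstream, a second pair of H3K4 islands began at 127625201, and reached into the lncRNA Gm40147. There H3K4me2 measured 4.2 kb in wild type and 1.2 in Asxl1-/-, and a 1.2 kb H3K4me3 island was in wild type alone. A 1.4 kb H3K4me2 island downstream, from 127639801, was also in wild type alone. Summed over the window, H3K4me2 came to 9.8 kb in wild type and 5.2 in Asxl1-/-, and H3K4me3 to 4.2 and 3.6 kb. The H3K4me2 ratio of 0.531 was that of chromosome 3 as a whole, at 0.532, and the H3K4me3 ratio was 0.857 against 0.70.

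The H3K27me3 domain of Neurog2 was a single island of 29.6 kb in wild type. In Asxl1-/- it was 3 islands of 5.4, 6.8 and 10.0 kb, all inside the wild-type island, which together covered 22.2 kb, or 75% of it. The island of 6.8 kb held the gene and its H3K4 islands. Both breaks were 800 bp wide, which is the smallest gap between islands in either H3K27me3 list. The ratio of H3K27me3 length in the window was 0.75, against a median of 0.459 for the other 124 genes of chromosome 3 with the mark in both genotypes, of which 79.0% had a lower ratio.

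Neurog3, which specifies hormone-producing cells of the pancreas, carried H3K27me3 alone in both genotypes. The gene is on chromosome 10, from 62133090 to 62134763, on the plus strand. Its window held 37.3 kb of H3K27me3 in wild type and 37.1 in Asxl1-/-. The island over the gene measured 17.2 kb in wild type and 35.8 in Asxl1-/-, where it ran together with the neighbouring island of 11.2 kb across a gap of 800 bp. The nearest H3K4me2 island lay 21.1 kb away in both genotypes, and H3K4me3 lay 21.7 kb away in wild type and 21.1 in Asxl1-/-. Neurog3 thus had the same marks in both libraries, on a chromosome with more H3K27me3 in Asxl1-/-.

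Neurod1, which is needed in differentiating neurons and in pancreatic islets, was the 1 gene with H3K4me3 in Asxl1-/- alone. It sits on chromosome 2 from 79452637 to 79456636, on the minus strand. The H3K4me3 island was 1.4 kb wide, from 79453601 to 79455000, and lay inside the gene, from 1636 to 3035 bp after the transcription start. H3K4me2 was at the same place in both genotypes, with 1.0 kb in wild type and 1.6 in Asxl1-/-, both reaching to 2835 bp after the start. The promoter printed above was under none of these H3K4 islands. The nearest wild-type H3K4me3 island was 23.0 kb away. Of genes without H3K4me3 in wild type, 5.19% had it in Asxl1-/-, and 3.51% did on chromosome 2.

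H3K27me3 covered less of the window at Neurod1 than at the other 7 marked genes. It was an island of 12.6 kb in wild type, from 79452401 to 79465000, and of 11.4 kb in Asxl1-/-, from 79453801 to 79465200. In the window it covered 13.2 and 11.4 kb, against 22.2 to 44.2 kb at the other 7 genes with the mark. The Asxl1-/- island ended inside the gene, and its end there was on the same grid position, 79453801, as that of the H3K4me2 island. The wild-type island ran 236 bp past the gene.

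Neurod2, a factor of cortical neurons, was under an H3K27me3 domain wider than its window in both genotypes. Its position is chromosome 11, from 98325415 to 98329645, on the minus strand. The domain was 74.2 kb wide in wild type, from 98282001 to 98356200, and 54.2 kb in Asxl1-/-, from 98301801 to 98356000, and all 44.2 kb of the window were covered in each. H3K4me2 inside the gene spanned 2.4 kb in wild type and 3.2 in Asxl1-/-, beginning 445 and 245 bp after the transcription start. No H3K4me3 island reached the gene. The nearest lay 8.56 kb away in wild type and 7.96 kb away in Asxl1-/-.

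H3K4 islands covered more of the window of Neurod2 than of the other 8 genes, most of it upstream. H3K4me2 covered 13.6 kb of the window in wild type and 17.6 in Asxl1-/-, and H3K4me3 covered 4.40 and 4.05 kb. These islands lay over the predicted gene Gm33099, the lncRNA Gm38970 and the Ppp1r1b interval, apart from a 1.8 kb H3K4me2 island from 98344601 to 98346400, which lay between the last 2 of these and was in Asxl1-/- alone. The H3K4me3 island over Gm33099 had 1.8 kb in wild type and 2.6 in Asxl1-/-, that over Gm38970 was 1.4 kb and in wild type alone, and that near Ppp1r1b was 1.2 and 2.8 kb. The interval of Gm33099 begins 4.81 kb from Neurod2 and that of Ppp1r1b 18.8 kb from it.

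Neurod4 stood apart from the other 8 genes, with no island of any of the 7 libraries at the gene or within 20 kb. This was so for 15.6% of all protein-coding genes, and 19.6% had no island within 1 kb. Chromosome 10 holds it from 130268152 to 130280254, on the minus strand. H3K4me2 came no nearer than 261.3 kb in wild type and 189.9 in Asxl1-/-, and H3K4me3 no nearer than 261.5 and 189.7 kb. For H3K27me3 the distances were 1369 and 1230 kb. At 12103 bp Neurod4 is also the longest of the 9 genes.

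Olig1 and Olig2 are neighbours on chromosome 16, 41.1 kb apart, and H3K4me2 was at a different gene of the pair in each genotype. Olig2, which specifies motor neurons and oligodendrocytes, had an H3K4me2 island of 2.4 kb in wild type, from 91225001 to 91227400. It ran from 549 bp before to 1850 bp after the transcription start, and Asxl1-/- covered none of it. Olig1, which acts in the maturation of oligodendrocytes, had an H3K4me2 island of 2.2 kb in Asxl1-/-, from 91269401 to 91271600, and wild type covered none of it. Of genes with H3K4me2 in wild type, 2.98% lacked it in Asxl1-/-, and 4.82% did on chromosome 16. Of genes without it in wild type on chromosome 16, 4.93% had it in Asxl1-/-. The nearest H3K4me2 island was 40.7 kb from Olig2 in Asxl1-/- and 42.4 kb from Olig1 in wild type, so over both windows each genotype had a single such island. By covered length in the window, H3K4me2 was at least 2-fold lower in Asxl1-/- at Olig2 (7.68% of the genes compared) and at least 2-fold higher at Olig1 and Olig3 (5.63%).

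Both Olig genes were under H3K27me3 throughout. Olig2 lies from 91225550 to 91228677, on the plus strand, under an island of 51.4 kb in wild type. Olig1 lies from 91269769 to 91271939, under an island of 86.8 kb in wild type. In Asxl1-/- the island over Olig2 was 25.6 kb and that over Olig1 29.2 kb, and each wild-type island met 4 islands of Asxl1-/-. These covered 90.3% of the wild-type island at Olig2 and 92.9% at Olig1. In the windows H3K27me3 covered 42.9 kb in wild type and 41.3 in Asxl1-/- at Olig2, and 36.3 and 34.7 kb at Olig1. H3K4me3 was absent from both windows in both genotypes.

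Olig3, a factor of dorsal neural progenitors, had H3K4me2 on either side of the gene in Asxl1-/- alone. Its span is chromosome 10 from 19356539 to 19358604, on the plus strand. The islands were 2.0 kb wide, from 19351601 to 19353600, and 2.2 kb wide, from 19361001 to 19363200, and neither reached the gene, the nearer beginning 2.40 kb past its end. The nearest wild-type H3K4me2 island was 162.3 kb away. H3K27me3 covered 39.9 kb of the window in wild type and 32.0 in Asxl1-/-, a ratio of 0.803. Chromosome 10 as a whole went the other way, and 5.83% of its 223 other genes with the mark in both genotypes had a lower ratio. Those genes had a median ratio of 1.39, while the window of Olig3 allowed at most 1.06, so its rank was limited in advance. With a flank of 10 kb the ratio of Olig3 was 0.964, and with 50 kb it was 0.782. An H3K27me3 island of 6.6 kb downstream of Olig3, from 19372801, was in wild type alone. Olig3 thus had less H3K27me3 and more H3K4me2 in its window in Asxl1-/-.

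**Figure D3:**
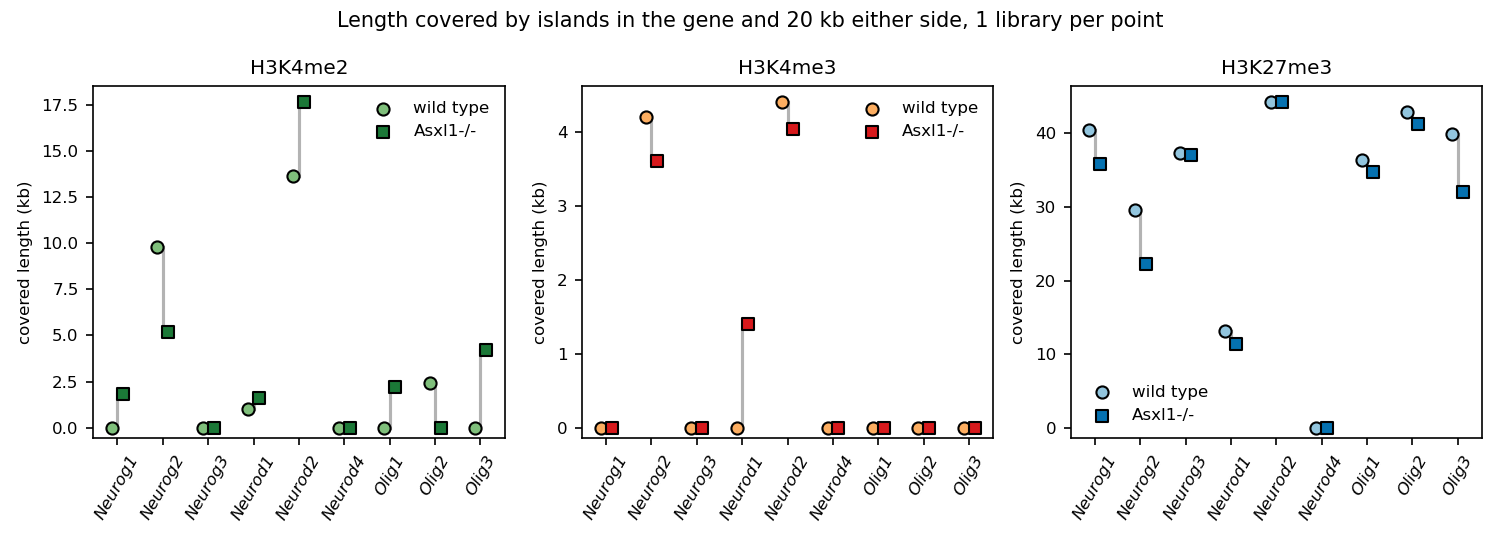
Length covered by islands (vertical axis, kb) in the gene and 20 kb either side, for each gene and mark, with circles for wild type and squares for Asxl1-/-; each point is 1 library. H3K27me3 is above 0 in both genotypes at 8 genes, less than 2-fold apart, with 29.6 and 22.2 kb at Neurog2 and 39.9 and 32.0 at Olig3. H3K4me2 is at 0 in wild type and above 0 in Asxl1-/- at Neurog1, Olig1 and Olig3, and the reverse at Olig2.

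Across the family the H3K27me3 length in the windows was equal or lower in Asxl1-/-, and at no gene did it differ by as much as 2-fold. It was lower at 7 genes and equal at Neurod2, with ratios from 0.75 to 1 and a median of 0.921. The direction depended on the flank at 2 genes. Neurog3 came to 1.20 with 50 kb, and Neurog1 to 1.04 and Neurog3 to 1.002 with 10 kb, while the others stayed equal or lower. Among all genes with the mark in both genotypes the median ratio was 0.981, with quartiles of 0.739 and 1.33, and 52.6% were below 1. A 2-fold lower length was found at 26.5% and a 2-fold higher one at 23.3% of the 11762 genes with at least 2 kb covered in either genotype, and at 0 of these 8 genes. For H3K4me3, Neurog2 and Neurod2 had enough to compare, and neither was 2-fold lower (3.94% of genes) or higher (5.72%). The H3K27me3 windows limited what could be seen at most of these genes, since a window already covered in wild type leaves no room for more. The highest ratio possible was 1.03 at Neurog1, 1.01 at Olig2, 1.06 at Olig3, 1.12 at Neurog3, 1.16 at Olig1 and 1 at Neurod2. Neurog2, with 1.45, and Neurod1, with 3.34, had more room, and both had a lower length in Asxl1-/-.

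Set beside the other genes of their own chromosomes, the 8 genes fell to both sides. Neurog2 had a higher ratio than 79.0% of them and Neurog1, at 0.886, than 75.2%. Olig1 and Olig2, at 0.956 and 0.963, were near the middle, and Neurod1, at 0.866, and Neurod2 were above 42.2% and 35.9%. Neurog3, at 0.995, was above 13.5% and Olig3 above 5.83%. Divided by the ratio of the chromosome, Neurog2 came to 3.38, Neurog3 to 0.476 and Olig3 to 0.384, past 2-fold in 1 direction or the other. An unchanged length would also have passed 2-fold at these genes, with chromosome ratios of 0.222 for Neurog2 and 2.09 for Neurog3 and Olig3. The windows of Neurog3 and Olig3 allowed a ratio of at most 1.12 and 1.06, so their scaled values could not reach 1. With the comparison kept to genes at least 50% covered in wild type, a limit chosen after the values were seen, Neurog2 was above 78.8% and Olig3 above 1.64% of them. Such genes on chromosome 10 still had a median ratio of 1.14, above what the window of Olig3 allowed, so this limit does not match the room for increase.

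**Figure D4:**
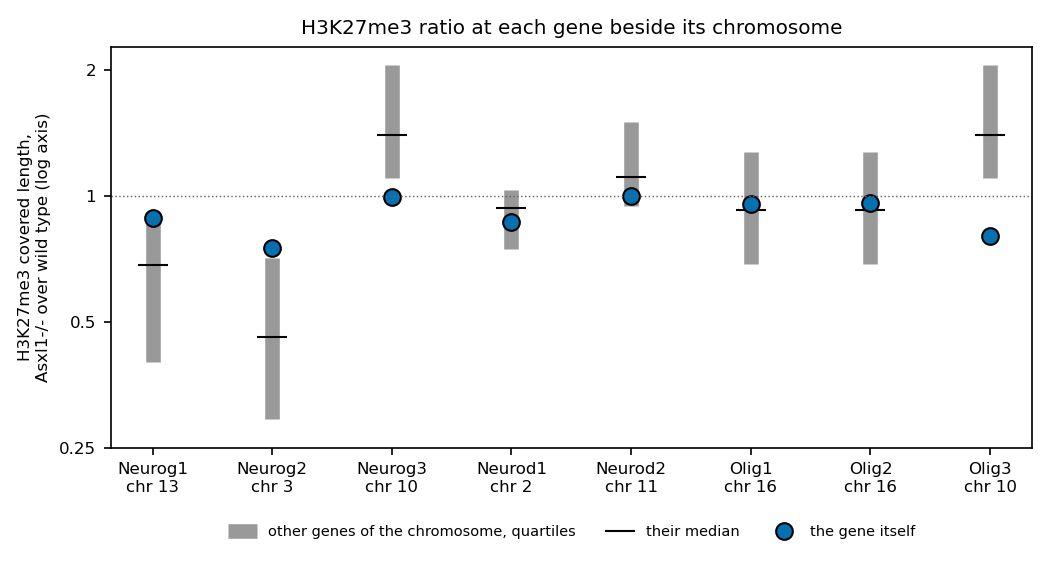
H3K27me3 covered length of Asxl1-/- over wild type (vertical log axis) for the 8 genes with the mark, as circles, beside the other genes of the same chromosome with the mark in both genotypes, as a grey bar from the lower to the upper quartile with the median as a line. The circles lie between 0.75 and 1 while the medians run from 0.459 on chromosome 3 to 1.39 on chromosome 10.

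The H3K27me3 domains were cut at different places in the genotypes. The number of islands in the window was higher in Asxl1-/- at Neurog1, Neurog2, Olig1 and Olig2, lower at Neurog3 and Neurod1, and equal at Neurod2 and Olig3. The island over the gene was narrower in Asxl1-/- at Neurog2, Neurod1, Neurod2, Olig1, Olig2 and Olig3, of equal width at Neurog1 and wider at Neurog3. Over all genes with the mark in both genotypes 55.6% had a narrower island in Asxl1-/-, and 64.6% of those whose wild-type island was at least 10 kb wide did. Its median width over the 8 genes was 33.1 kb in wild type and 26.6 in Asxl1-/-, against 15.4 and 14.4 kb over the 4768 genes with the mark in both. At 6 of the 8 genes the wild-type island met 2 or more islands of Asxl1-/-, against 27.4% of all such genes and 37.3% of those whose wild-type island was at least 10 kb wide. The latter had a median wild-type width of 21.4 kb, below the 33.1 kb of the 8 genes, so these comparisons are not matched for width. Neurog1 is among the 6, and there the Asxl1-/- island met 2 wild-type islands as well. At the median gene of the 8, Asxl1-/- nevertheless covered 91.6% of the wild-type island, and at the median of all such genes 90.5%. Of the 9 gaps between Asxl1-/- islands in the windows, 6 were 800 bp wide, and wild type covered 8 of the 9 in full. Of the 5 gaps between wild-type islands, 2 were 800 bp wide, and Asxl1-/- covered 2 in full. Neurog3 had it the other way round, with 3 wild-type islands under the single Asxl1-/- island over the gene. The smallest gap that the lists hold is also 800 bp, so 6 of the 9 breaks in Asxl1-/- were as short as a break in these lists can be. Neither gaps nor the number of islands in a window were counted over all genes. The counts of both given here therefore have no background beside them, and cannot be read as particular to these genes.

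CpG content, which the choice of genes did not use, separated Neurod4 from most of the family but not from Olig3. RefSeq promoter windows of 300 bp, from 250 before to 50 after a transcription start, were given for 8 of the 9 genes, in 9 windows. Neurog1 held 32 CpG, Neurod1 26, Olig2 25, Neurog3 19, Neurod2 16 and Neurog2 10. The Neurod4 windows held 4 and 7, and that of Olig3 held 4. The median over all 21045 windows of protein-coding genes was 13, with quartiles of 4 and 25. Windows of genes with no island of any library had a median of 2 and those of genes with H3K27me3 in both genotypes a median of 11. Olig3 and Neurod4 were thus alike in CpG and on the same chromosome, and differed in that H3K27me3 covered the whole window of Olig3 and none of Neurod4 in both genotypes.

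H3K27me3 covered 7 of the 9 windows in full in each genotype, against 20.3% of all windows in wild type and 18.4% in Asxl1-/-. H3K4me3 covered the window of Neurog2 alone in each genotype, against 56.2% and 56.3%. H3K4me2 covered those of Neurog2 and Olig2 in wild type and of Neurog2 and Neurog1 in Asxl1-/-, against 59.3% and 60.9%. The E-box letters CANNTG, which read the same on both strands, were in 6 of the 9 windows and in 69.0% of all windows. Neurod2 held 3 of them, Neurog1, Neurog3, Neurod1, Olig3 and 1 window of Neurod4 held 1, and Neurog2, Olig2 and the other window of Neurod4 none. The family was thus near the background for these letters.

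**Figure D5:**
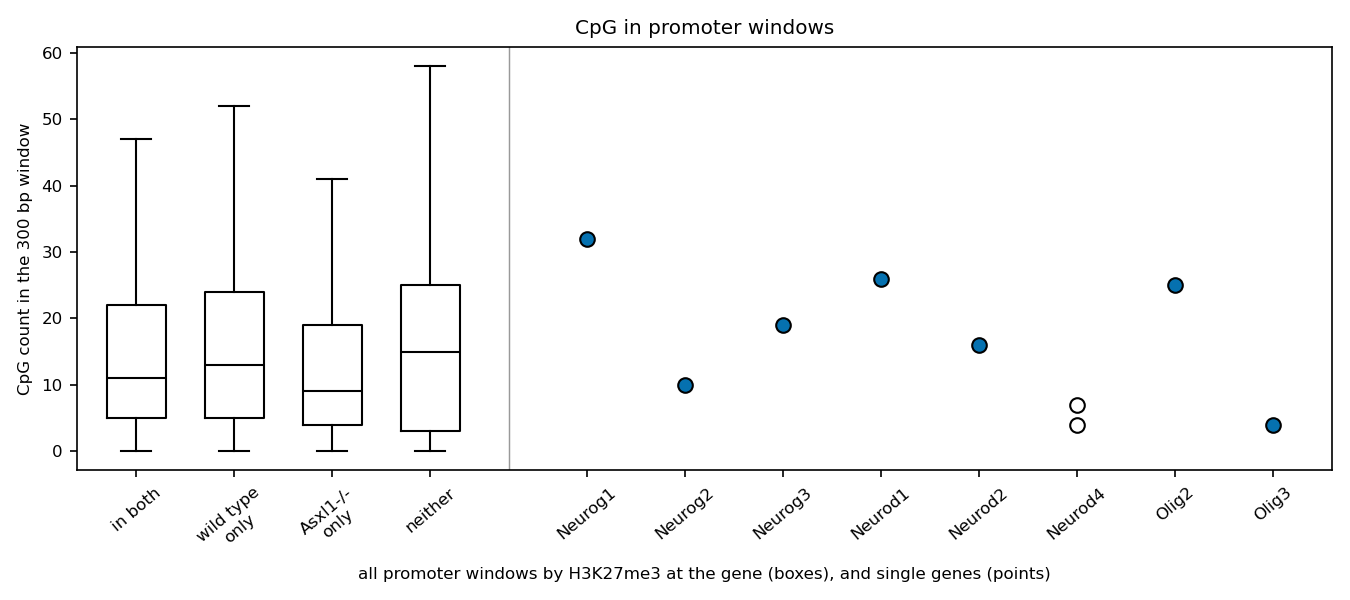
CpG count in promoter windows of 300 bp (vertical axis), with boxes from the lower to the upper quartile, a line at the median and whiskers to the farthest window within 1.5 quartile ranges for all genes grouped by H3K27me3, and points for the windows of 8 genes, filled where H3K27me3 covered the window in wild type. Neurog1 is highest at 32, and Olig3 (filled) and a window of Neurod4 (open) both stand at 4.

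Other genes of the pathway were read in the same way. Of 17 other proneural and neural bHLH genes, 14 had H3K27me3 in wild type and 13 in both genotypes, 6 had H3K4me3 in wild type and 2 had ASXL1. The ASXL1 islands were at Atoh8, which had no H3K27me3, and at Bhlhe22, which had it in both genotypes, and these names were chosen after the values were seen. Neurod6, a factor of cortical neurons and a close relative of Neurod1, had H3K27me3 (12.4 kb) in wild type alone. Nhlh1 had H3K4me3 (5.0 kb) in Asxl1-/- alone, and Bhlha9 (3.0 kb), Bhlhe23 (2.2 kb) and Ptf1a (1.4 kb), a factor of the pancreas and cerebellum, had H3K4me2 in Asxl1-/- alone. No gene of this list had H3K4me2 or H3K4me3 in wild type alone, as 2.04% and 2.71% of all genes did. Over all genes 6.91% had H3K27me3 in wild type alone, and 2.87% had H3K4me2 and 1.92% H3K4me3 in Asxl1-/- alone. Of genes without H3K4me2 in wild type, 14.9% had it in Asxl1-/- on chromosome 11 (Bhlha9) and 7.27% on chromosome 2 (Bhlhe23, Ptf1a).

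All 3 genes of the E proteins, Tcf3, Tcf4 and Tcf12, had ASXL1, H3K4me2 and H3K4me3, and none had H3K27me3 in wild type. Tcf3 had a 4.4 kb H3K27me3 island in Asxl1-/-. Of 13 Hes, Hey and Id genes, whose products block proneural activity, 9 had ASXL1, 10 had H3K4me3 and 6 had H3K27me3 in wild type. Hes3 had H3K27me3 with neither H3K4 mark in wild type, and Hes2 and Heyl had it with H3K4me2 and no H3K4me3. Heyl was chosen after its values were seen. In Asxl1-/- alone Hes3 had H3K4me2 (4.0 kb), Hes2 had H3K4me3 (2.6 kb), and Id2 (10.6 kb) and Id3 (1.8 kb) had H3K27me3. Of 18 genes that act downstream of or beside the proneural factors in neurons and glia, 14 had H3K27me3, 9 had H3K4me3 and 5 had ASXL1 in wild type. Among these, Tubb3 (11.8 kb), Cspg4 (6.2 kb) and Stmn2 (5.2 kb) had H3K27me3 in wild type alone. Of all genes marked in wild type 23.9% lacked the mark in Asxl1-/-, and 58.3% did on chromosome 3, which holds Stmn2. Dcx (8.2 kb), on the X chromosome, had H3K27me3 in Asxl1-/- alone. The X chromosome as a whole had 11.7 times the H3K27me3 length in Asxl1-/-. Chromosomes 10 (Tcf3), 12 (Id2) and 4 (Id3) had 2.09, 1.87 and 0.619 times. The Notch ligand gene Dll3 and the neuronal RNA-binding protein gene Elavl3 each had a 1.6 kb H3K4me3 island in Asxl1-/- alone. Beside these lists, 2.87% of all genes had H3K4me2, 1.92% H3K4me3 and 5.21% H3K27me3 in Asxl1-/- alone.

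Over the 7 libraries, the median of the 9 genes was a window with 89.5% under H3K27me3 in wild type and 82.4% in Asxl1-/-, 4.32% under H3K4me2 in Asxl1-/-, and 0 elsewhere. Olig1 was the gene of the family nearest to it, with a mean absolute difference of 0.609 percentage points over the 7 libraries. Neurod4 was the farthest, at 25.2, followed by Neurod1 at 17.5, Neurod2 at 16.2 and Neurog2 at 14.3. Of genes more than 200 kb from the family, the 5 nearest to its median were Lcn8 (0.635), Arhgap25 (0.648), 7530416G11Rik (0.742), the growth factor gene Fgf4 (0.852) and Ppp2r2c (0.876). Lcn8 had 88.4% and 81.7% of its window under H3K27me3 in wild type and Asxl1-/-, and Fgf4 had 87.1% and 79.5%.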

How the data were processed

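ASXL1, H3K4me2, H3K4me3 and H3K27me3 were measured in 7 libraries with an island list, and the input library, which completes the 8 samples, was not analysed here. Per the submitters' processing notes, reads were aligned with BWA and islands called with SICER 1.1 on mm10. Which version of BWA and which SICER settings and control were used is not given in the sources used here. Island lists as deposited by the authors hold positions and a running number, with no counts, so depth is unknown. Starts are counted from 0 and both ends are included, and 1 was added to print them. All island ends lie on a 200 bp grid.

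Presence took at least 1 bp of an island in the gene and 1 kb either side. Covered length was summed over the gene and 20 kb either side, and called at 2-fold with at least 2 kb in the higher library. All 9 genes and all listed genes were found in the RefSeq table, which gives no exons, so exons and untranslated regions were not assigned. Strand and transcription start came from the RefSeq promoter table, which holds 8 of the 9 genes. Olig1 was not in it. Named genes were the 9, those of each list that had a mark in a single genotype (at most 4 per list and mark, widest islands first), and the 5 nearest to the family's median. A gene that this rule takes is not reported here, while counts keep every gene. Names in the cell type check were chosen after their values were seen. The members and lists were chosen with earlier results of these data known. The calculations used Python 3.11.15, numpy 2.4.6 and pandas 2.3.3, and were tested on simulated data in which islands had been removed at known genes. Alternatives covered the span, the overlap, the flank, the island set, the chromosome scaling and the fold.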

Additional observations from a re-analysis of the deposited data

How the results depend on the processing

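No paired analysis was possible because each target and genotype has 1 library. Of 101 counts of the 9 genes under the alternatives, 87 stayed within 1.5 times. Many of the 87 were counts of 0 that stayed at 0, and counts were compared, not the genes behind them. H3K27me3 was present at 8 genes under every setting that counted presence. The count of 0 for ASXL1 could not move, since presence was read to at most 5 kb and the nearest ASXL1 island lay 23.4 kb away. The causes of the moves were not tested, beyond what each setting leaves out. With at least 50% of the gene body covered, 1 gene had H3K4me3 in Asxl1-/- and 0 had it there alone, as Neurod1 dropped out. With islands of at least 2 kb (H3K4 marks) or 5 kb, 3 genes had H3K4me2 and 1 had H3K4me3 in Asxl1-/-, 1 had H3K4me2 and 0 had H3K4me3 there alone, 2 had a 2-fold lower H3K4me2 length (Neurog2 and Olig2) and 1, Neurod2, a higher H3K4me3 length. With lists of equal number 1 gene, again Neurod2, had a 2-fold higher H3K4me3 length. With a flank of 50 kb 0 genes had a lower H3K4me2 length and 1, Neurog1, a higher H3K4me3 length, and the genes with a higher H3K4me2 length were Neurog1 and Olig3 in place of Olig1 and Olig3. At 1.5-fold 2 genes had a lower H3K4me2 length. Divided by the chromosome ratio, 2 genes, Neurog3 and Olig3, had a lower H3K27me3 length and 1, Neurog2, a higher one, and Neurog1 came to 1.80. At Neurog3, Olig3 and Neurog2 this scaling would also carry an unchanged length past 2-fold. The H3K4 differences at Neurog1, Neurod1, Olig1, Olig2 and Olig3 each rest on islands of 1.4 to 2.4 kb in 1 library, and without read counts it is unknown how far a missing island was from being called.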

Other observations

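The mesodermal bHLH genes, relatives of the proneural genes that act in muscle, limb, tendon and blood, were mixed in their marks. Of 17, 10 had H3K27me3 in wild type, 7 had H3K4me3 and 5 had ASXL1. Twist1, Twist2 and Scx, which act in mesenchyme and tendon, had ASXL1, H3K4me2 and H3K4me3 with no H3K27me3 in either genotype. The muscle genes Myod1 and Myog had H3K27me3 and no H3K4 mark in both genotypes. Lyl1 (4.8 kb), Hand2 (3.0 kb) and Tal1 (1.4 kb) had H3K4me3 in wild type alone, which was so for 2.71% of all genes, and Msc (3.6 kb) had it in Asxl1-/- alone, which was so for 1.92%. Msgn1, a gene of early mesoderm, had an H3K27me3 island of 17.6 kb in Asxl1-/- alone, as 5.21% of all genes did. It lies on chromosome 12, which had 1.87 times the H3K27me3 length in Asxl1-/-. Hand1 had H3K4me2 (1.4 kb) in wild type alone (2.04% of all genes) and Myf6 (1.4 kb) in Asxl1-/- alone (2.87%). On chromosome 11 (Hand1) 1.51% of genes with H3K4me2 in wild type lacked it in Asxl1-/-. On chromosome 10 (Myf6) 12.8% of those without it in wild type had it in Asxl1-/-. Twist1, Twist2, Scx, Myod1 and Myog were chosen after their values were seen.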
